A study of Homo sapiens with 4 samples.

Results

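The genes described here are the ligands, receptors, SMAD proteins, antagonists and response genes of transforming growth factor beta (TGF-beta), activin and bone morphogenetic protein (BMP) signalling. They were chosen by name, as 45 listed members, through every probe set of the array that the platform annotation assigns to 1 of them alone. That gave 133 probe sets for 44 members out of 54613 probe sets and 19775 genes. BMPR1A is not analysed here, and 1 probe set shared by ID2 and another gene was left out. According to the labels the samples were HuCCT1 cells, an established cell line from a human bile duct cancer (cholangiocarcinoma). The label of 2 of the 4 arrays is wild type for ARID1A, and that of the other 2 is knockout. ARID1A encodes a DNA-binding subunit of the SWI/SNF chromatin remodelling complex, and the study asked what its loss does to gene expression in these cells. The knockout was made by lentiviral delivery of Cas9 with a single guide, puromycin selection and limiting dilution, so by the labels the knockout cells are clones, of a number not given. Whether the wild-type cells were cloned, infected or selected as well is not stated, and neither is whether arrays of 1 group came from separate cultures. The p-values below therefore measure the spread between these arrays only, which may be technical.

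TGF-beta and activins bind pairs of type II and type I receptors that phosphorylate SMAD2 and SMAD3, whereas BMPs act through other type I receptors on SMAD1 and SMAD5. Phosphorylated SMADs join SMAD4 and enter the nucleus, where the first branch is known for inducing matrix and cytoskeletal genes and the second for inducing the ID genes, inhibitors of basic helix-loop-helix transcription factors. Both branches are held back by secreted traps, by the inhibitory SMAD6 and SMAD7 and by ubiquitin ligases. In the bile duct and its tumours TGF-beta is known for growth arrest, matrix deposition and loss of epithelial character.

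Arrays of a group correlated at 0.997 (wild type) and 0.995 (knockout) across genes, and arrays of different groups at 0.920 to 0.921. A test of sample identity set 2 arrays apart from the remaining 2, out of 4, so differences between the groups cannot be told apart from a different origin of the cells, another cell line included, and directions below are those between labelled groups. ARID1A itself read 8.55 and 8.61 on the wild-type arrays and 6.15 and 5.95 on the knockout-labelled arrays (log2 difference −2.53 ± 0.11 SE, limma adjusted p = 0.00014), with 3 of its 4 probe sets lower. Of 7 measured markers of biliary epithelium 4 were lower and 1 higher, where 17.2% of all genes were lower and 21.5% higher. The lower ones were EPCAM (−4.73 ± 0.11), CFTR (−4.40 ± 0.12), KRT7 (−2.32 ± 0.09) and KRT19 (−0.92 ± 0.11). KRT8 was higher (0.82 ± 0.13), while KRT18 and SOX9 did not pass the test. All 4 measured leukocyte markers lay under the array median on all 4 arrays and none of them was called. Of 6 fibroblast markers LUM (−5.24) and COL1A1 (−4.76) were lower and the others were not called. Of 5 endothelial markers TEK was called (0.40), and of 5 hepatocyte markers ALB (1.73) and TTR (0.45). ALB was called in 1 of 4 probe sets. It read 4.09 and 2.95 on the knockout-labelled arrays, where the array medians were 3.99 to 4.03. TEK and TTR had 0 probe sets called when adjusted over every probe set. The part of these marker changes in the results below was not tested.

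Members of both branches were called in both directions. Under the knockout label 20 of the 44 members read higher and 18 lower at an adjusted p under 0.05 in limma, that is 86.4%, where 38.7% of all genes were called (21.5% higher and 17.2% lower). Brightly read genes were called more often. Among genes at or above the 60th percentile of mean level 73.7% were called, and of the 34 members at that level 32 were called (94.1%). The groups did not overlap in 40 of 44 members, against 66.4% of all genes. The typical size also differed, with a median absolute log2 difference of 0.96 over the members and 0.29 over all genes. At least 2-fold changes passed the test in 9 members that rose and 11 that fell, where 8.69% of all genes rose and 7.89% fell by that much. The overlap and size comparisons are with all genes, dim ones included, and were not repeated among genes at or above the 60th percentile. The members' shares describe a list that was put together by pathway, with earlier results of these data known.

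In the TGF-beta and activin arm 12 of 21 members were lower and 7 higher, and the median log2 difference was −0.51. In the BMP arm 10 of 17 were higher and 4 lower, with a median of 0.74. The median over all genes was 0.06, and 21.5% of all genes were called higher and 17.2% lower. The split into arms, like the list, was made with earlier results of these data known. On single arrays, set against the wild-type mean of each member, the TGF-beta and activin arm had a median of −0.50 and −0.63 on the 2 knockout-labelled arrays. The BMP arm stood at 0.59 and 0.69 on the same arrays. On the wild-type arrays the same medians lie between −0.03 and 0.03, mirrored around 0 because they are taken from the mean of those arrays. The difference between arms is a description, without a test. The sign of an arm's median hides members that went the other way, and the order of members below follows their roles. Each arm also mixes genes that carry a signal with genes that hold it back. In the TGF-beta and activin arm the traps FST and FSTL3 and the co-repressors SKI and SKIL were lower, and the co-repressor TGIF1 higher. In the BMP arm the inhibitory SMAD6 was higher and the antagonist NOG lower. The medians are therefore no measure of signalling in either branch.

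**Figure D1:**
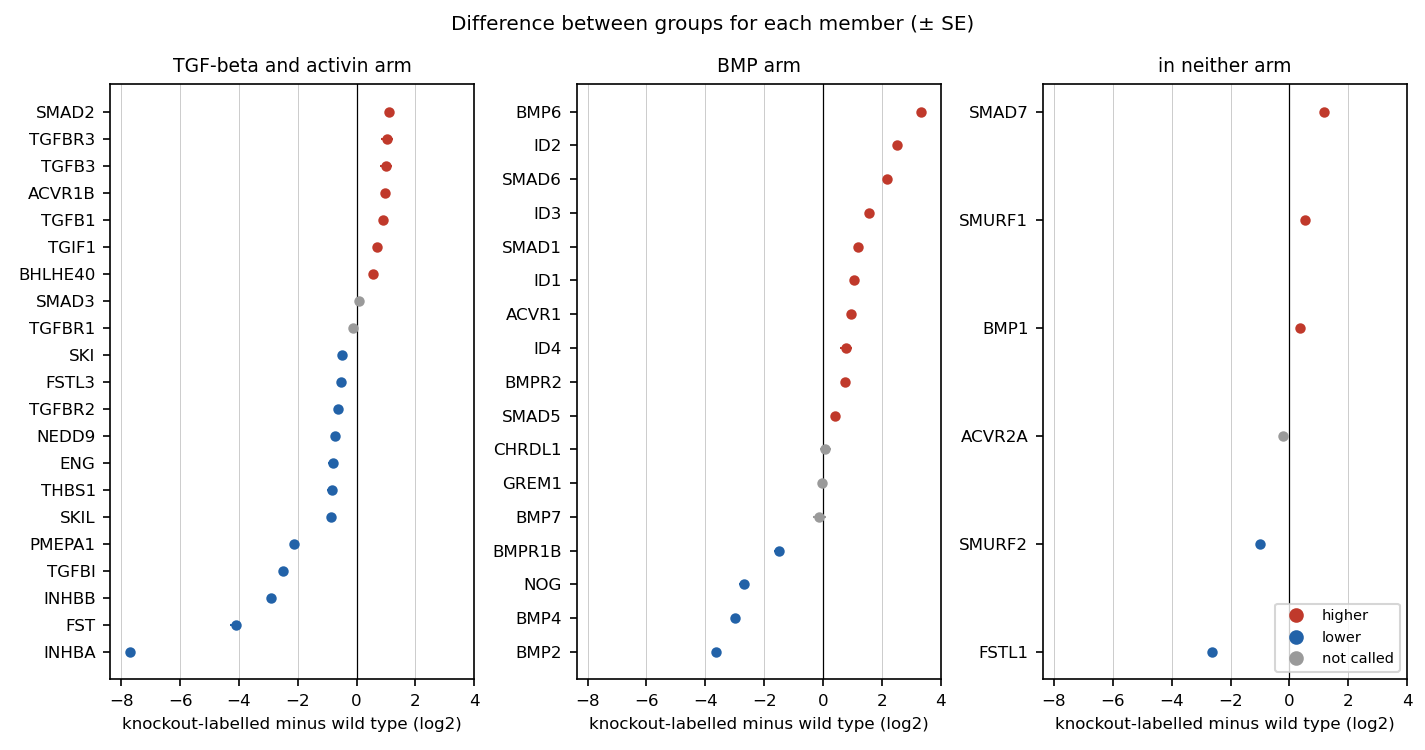
Log2 difference, knockout-labelled minus wild type, for each of the 44 members (points, with the limma SE as bars), in panels for the TGF-beta and activin arm (21 members), the BMP arm (17) and the 6 members in neither. Red and blue points are higher or lower at an adjusted p under 0.05 and grey points were not called. INHBA at −7.71 stands far to the left of all others, and BMP6 at 3.34 is the largest rise.

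Among the ligands, the activin subunit gene INHBA showed the largest fall of the members. It encodes the beta A subunit, which pairs with itself to form activin A. INHBA read 11.06 and 11.07 on the wild-type arrays and 3.28 and 3.42 on the knockout-labelled arrays. The groups were far apart, and the knockout-labelled values lay at percentile 39.3 of the array on average, below its median, where the wild-type values lay at percentile 98.6. The log2 difference was −7.71 ± 0.10 (SE, limma adjusted p = 1.35e-05). All 3 probe sets were lower, with differences from −8.49 to −3.67. INHBB, the beta B subunit, read 7.87 on both wild-type arrays and 5.05 and 4.88 on the knockout-labelled arrays, a difference of −2.91 ± 0.11. INHBC, an activin subunit gene outside the member list, was higher by 0.66 ± 0.19 (limma adjusted p = 0.0463). When adjusted over every probe set, 0 of its 2 probe sets were called. INHBE, also outside the list, was not called. An array of bulk RNA cannot tell fewer expressing cells from less RNA per cell, which holds for every fall and rise given here. RMA gives no detection call, so a value in the lower part of the array is a place on the array and not a measured level.

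The follistatins, secreted proteins that trap activins, fell along with INHBA and INHBB. FST (follistatin) read 9.29 and 9.27 on the wild-type arrays and 5.41 and 4.93 on the knockout-labelled arrays. Its 3 probe sets were all lower, with differences of −5.08 to −4.11. FSTL3, a related activin trap, read 6.07 and 6.35 against 5.82 and 5.58 (difference −0.51 ± 0.15, limma adjusted p = 0.0486). That call was lost without any 1 array (adjusted p = 0.0821 to 0.247). FSTL1, a secreted glycoprotein of the same family that is reported to bind BMP4, read 10.67 and 10.57 against 8.13 and 7.85. It was lower in all 3 of its probe sets, with −2.63 ± 0.13 in the brightest. INHBA, INHBB and FST thus lay in the same direction on these arrays, and the values say nothing of how much free activin the cells release.

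The promoter windows of INHBA and FST are printed because these are the largest falls among the members, and they can be set against those of genes that rose, printed further on. They run from 250 bases before to 50 bases after the annotated start, 5′ to 3′ on the gene's strand, as given by RefSeq on GRCh38.p14 (INHBA at chr7:41703041-41703340, minus strand, and FST at chr5:53480379-53480678, plus strand). A total of 4 short motifs were searched on both strands: CAGAC, the SMAD box, GTCTAGAC, the palindromic SMAD element, GGCGCC, a GC-rich element bound by SMADs, and TGANTCA, the AP-1 element. Capitals mark each match, and in the windows printed no matches overlap.
INHBA: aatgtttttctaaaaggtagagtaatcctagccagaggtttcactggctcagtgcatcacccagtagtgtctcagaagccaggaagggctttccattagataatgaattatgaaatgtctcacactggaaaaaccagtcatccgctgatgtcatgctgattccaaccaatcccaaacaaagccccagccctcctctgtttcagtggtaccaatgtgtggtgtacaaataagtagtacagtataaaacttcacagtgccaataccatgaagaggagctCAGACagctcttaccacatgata
FST: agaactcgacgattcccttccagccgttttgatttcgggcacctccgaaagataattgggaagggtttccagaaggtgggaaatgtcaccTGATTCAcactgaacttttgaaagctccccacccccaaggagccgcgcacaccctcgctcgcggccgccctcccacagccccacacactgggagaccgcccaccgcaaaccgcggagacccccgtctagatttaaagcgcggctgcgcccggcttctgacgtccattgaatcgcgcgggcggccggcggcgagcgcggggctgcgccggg
INHBA holds a CAGAC match 27 bases after the start, and FST holds a TGANTCA match that begins 160 bases before it. The FST match reads TGATTCA, with T in place of N, so it is not the AP-1 element itself. CAGAC occurred in 45.3% of all 35116 windows and in 51.3% of the 78 windows of the 39 members that have one. TGANTCA occurred in 7.71% and 10.3%. A match is a description of the letters and not a site of binding.

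The TGF-beta ligands on the list were higher, by about 2-fold or less. TGFB1, the main TGF-beta of most tissues, read 5.77 and 5.89 against 6.78 and 6.65, a difference of 0.88 ± 0.11 (limma adjusted p = 0.0029). Its other probe set pointed the other way, at −0.42, without passing the test. TGFB3 read 4.52 and 4.07 against 5.10 and 5.48 (1.00 ± 0.21), called in 1 of 2 probe sets and lost without any 1 array (adjusted p = 0.0526 to 0.117). TGFB2, which is outside the member list, read 10.41 and 10.33 against 9.76 and 9.79, the highest readings of the 3 TGF-beta genes. It differed by −0.59 ± 0.10 and was lower in 3 of 5 probe sets. The 3 TGF-beta genes therefore did not share a direction, and none differed by more than about 1 on the log2 scale in the probe set used.

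Of the 4 BMP ligands among the members, 2 fell and 1 rose. BMP2 read 6.40 and 6.71 on the wild-type arrays and 2.91 and 2.95 on the knockout-labelled arrays, where it lay at percentile 31.6. The difference was −3.62 ± 0.14, and the second probe set gave −3.47. BMP4 read 9.22 and 9.17 against 6.38 and 6.04 (−2.99 ± 0.14, with 1 probe set). BMP6 went the other way, from 3.11 and 3.05 to 6.42 on both knockout-labelled arrays. The wild-type values of BMP6 lay at percentile 34.7, and its difference of 3.34 ± 0.09 rests on 1 of 3 probe sets, since the others were called in neither direction (−0.03 and 0.19). The 2 knockout-labelled values of BMP6 are the same to 4 decimals, so its spread in that group reads as 0 and its SE comes from the variance that limma borrows from other genes. BMP8B, a BMP ligand outside the member list, was higher by 1.22 ± 0.09 in 1 of 3 probe sets. BMP7 read 5.34 and 5.43 against 5.56 and 4.95, with overlapping groups and none of its 4 probe sets called (adjusted p = 0.707). BMP1, a procollagen-cleaving metalloproteinase that shares the name but is no BMP, differed by 0.35 ± 0.10, a call lost without any 1 array (adjusted p = 0.0687 to 0.196) and when adjusted over every probe set (0.079).

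Of the 3 secreted BMP antagonists among the members 1 was lower and 2 were not called. NOG (noggin), which traps BMP2 and BMP4, read 7.47 and 7.49 against 4.61 and 4.97, a difference of −2.70 ± 0.15 (limma adjusted p = 0.000232). It fell together with BMP2 and BMP4, as FST did with INHBA and INHBB, while BMP7 was not called and BMP6 rose. GREM1 (gremlin) read 2.03 and 2.09 against 2.07 and 1.99, and CHRDL1 (chordin-like) 2.50 and 2.37 against 2.26 and 2.75. Both lay under the array median on all 4 arrays, the only members to do so, and neither was called. Of 9 measured secreted antagonists outside the member list 3 were lower (NBL1, SOSTDC1 and BMPER) and 1 higher (DAND5), 44.4% called against 38.7% of all genes. TWSG1, a BMP-binding protein, read 10.16 and 10.09 against 10.10 and 10.16 and was not called.

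**Figure D2:**
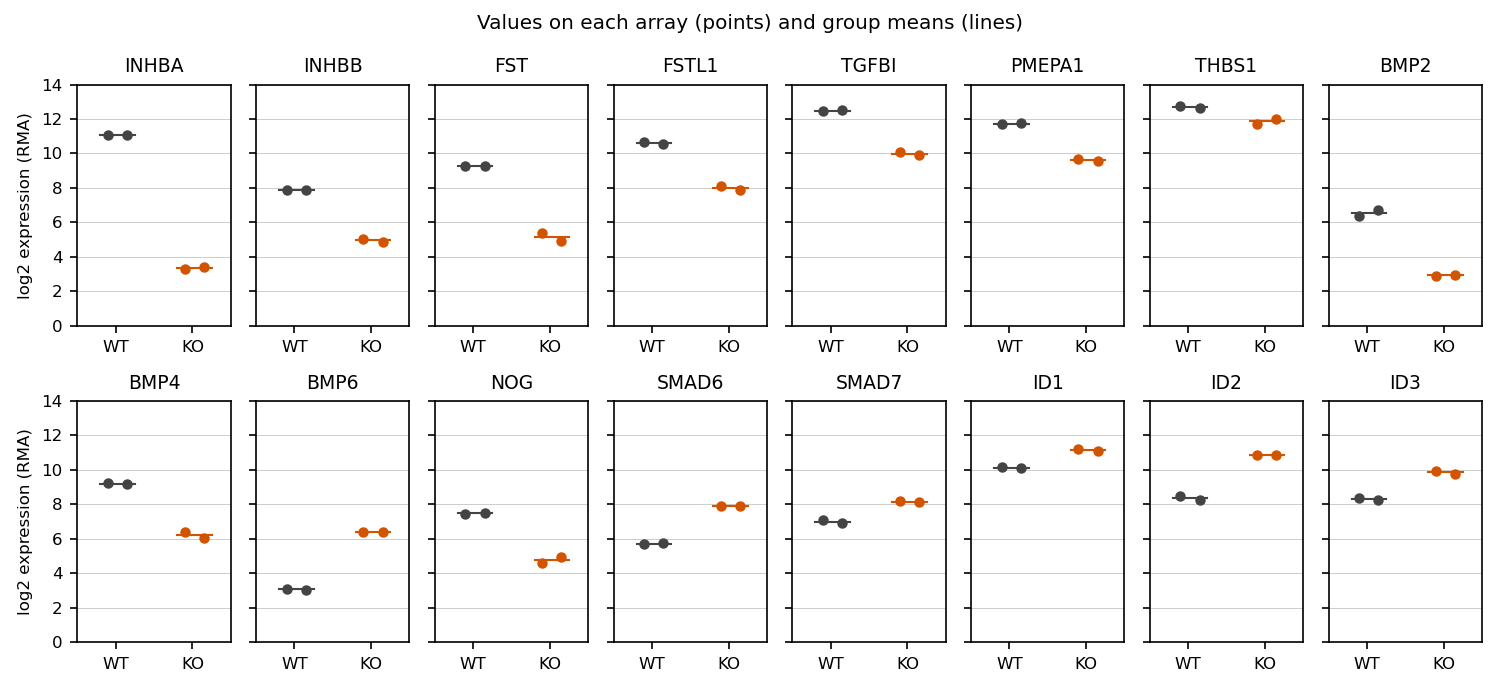
Log2 expression (RMA, vertical axis) on each array for 16 members, with the 2 wild-type arrays (WT, grey points), the 2 knockout-labelled arrays (KO, orange points) and the group means as lines. In each panel the groups are apart by more than the distance between the points of a group. INHBA drops from 11.06 to 3.35 and BMP6 climbs from 3.08 to 6.42.

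Of the 7 measured receptors 3 were higher and 2 lower (over all genes 21.5% and 17.2%), and the BMP type I receptor BMPR1B was the only one at least 2-fold lower. TGFBR2, the type II receptor for TGF-beta, read 11.07 and 11.16 against 10.62 and 10.36 (−0.63 ± 0.13), and both of its probe sets were lower. Its type I partner TGFBR1 read 8.90 and 8.84 against 8.57 and 8.94, with overlapping groups and no probe set called. ACVR1B, the activin type I receptor, read 7.40 and 7.42 against 8.42 and 8.32 (0.96 ± 0.10), in 2 of 6 probe sets. ACVR2A, a type II receptor shared by activins and BMPs, differed by −0.22 ± 0.09 and did not pass the test (adjusted p = 0.141, and 0.0318 when genes under the 60th percentile were left out). On the BMP side ACVR1 (0.96 ± 0.10) and the type II receptor BMPR2 (0.74 ± 0.10, in 3 of 6 probe sets) were higher. BMPR1B read 5.04 and 4.85 against 3.61 and 3.27 (−1.51 ± 0.15, lower in 2 of 3 probe sets), which put it at percentile 40.7 in the knockout-labelled arrays.

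The co-receptors went in opposite directions. TGFBR3 (betaglycan), which presents TGF-beta and inhibin to the receptors, read 6.52 and 6.48 against 7.80 and 7.28, with both probe sets higher by 1.03 and 1.04. ENG (endoglin) read 6.17 and 6.01 against 5.11 and 5.46 (−0.81 ± 0.15), in 1 of 2 probe sets. Some of these calls were lost with 1 array fewer, while the differences moved little. Without wild-type replicate 1 or 2, TGFBR2 differed by −0.67 and −0.58 (adjusted p = 0.0987 and 0.127), TGFBR3 by 1.05 and 1.01 (0.103 and 0.11) and ENG by −0.73 and −0.89 (0.118 and 0.081). BMPR2 lost its call without wild-type replicate 2 (0.70, adjusted p = 0.0558), and TGFBR2 without knockout replicate 2 (−0.50, 0.0534).

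The SMAD proteins that carry the signal were higher or not called. SMAD1, a BMP SMAD, read 7.64 and 7.66 against 8.67 and 8.99 (1.18 ± 0.14), and 2 of its 3 probe sets were higher. SMAD5, the other BMP SMAD, differed by 0.41 ± 0.10 in the probe set used (limma adjusted p = 0.0241), but its 5 probe sets ranged from −0.56 to 0.41 and their mean gave −0.11. Its call was also lost without any 1 array (adjusted p = 0.063 to 0.149) and with the replicate number as a block (0.0658). SMAD2, a TGF-beta SMAD, read 7.79 and 7.80 against 8.93 and 8.90 (1.12 ± 0.09), while 4 of its 6 probe sets were not called and ranged from −0.29 to 0.24. SMAD3 read 9.43 and 9.36 against 9.48 and 9.49, and none of its 4 probe sets passed the test (adjusted p = 0.55 in the one used). SMAD4, the partner of both branches and not a listed member, was higher by 0.93 ± 0.11 in 3 of 5 probe sets.

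The inhibitory SMADs both rose. SMAD7, which blocks both branches and is induced by them, read 7.08 and 6.91 against 8.20 and 8.14 (1.18 ± 0.11, limma adjusted p = 0.00113, with 1 probe set). SMAD6, which acts mainly on the BMP branch and is one of its targets, read 5.68 and 5.78 against 7.91 and 7.89 (2.17 ± 0.10). Only that probe set of SMAD6 was called, and the other 3 of its 4 gave positive differences of 0.25 to 0.43 that did not pass.

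Among the nuclear co-repressors of SMAD2 and SMAD3, SKIL fell in 3 of 5 probe sets, from 9.80 and 9.65 to 8.83 and 8.86 (−0.88 ± 0.10). SKI differed by −0.51 ± 0.10 in 1 of 3 probe sets, a call lost without either wild-type array (adjusted p = 0.109 and 0.101) and without knockout replicate 1 (0.0521). TGIF1 was higher by 0.69 ± 0.09 in 1 of 3 probe sets, a call lost without wild-type replicate 1 (0.054). Its remaining probe sets gave −0.51 and −0.03. Of the ubiquitin ligases that mark SMADs and receptors, SMURF2 was lower (9.87 on both wild-type arrays against 8.86 and 8.85) in 2 of 4 probe sets, with the others near 0. SMURF1 was higher by 0.53 ± 0.12 in 1 of 5 probe sets, and that call was lost without either wild-type array (0.163 and 0.108), without knockout replicate 1 (0.0812) and with the replicate block (0.0545).

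Of the 5 member response genes of TGF-beta 4 were lower, and all 4 ID genes, the member response genes of BMP, were higher. Response genes outside the member list, given further on, did not divide this way. On the knockout-labelled arrays the median of the TGF-beta response genes was −1.01 and −0.81 against the wild-type mean, and that of the ID genes 1.37 and 1.23. These are lists of 5 and 4 genes, and with 21.5% of all genes called higher and 17.2% lower the counts are a description.

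TGFBI, a secreted matrix protein named for its induction by TGF-beta, read 12.45 and 12.51 on the wild-type arrays and 10.08 and 9.91 on the knockout-labelled arrays, a difference of −2.48 ± 0.11. PMEPA1, a membrane protein that dampens SMAD signalling, read 11.68 and 11.77 against 9.68 and 9.55, and its 3 probe sets were all lower, with differences of −2.33 to −2.11. THBS1 (thrombospondin, an activator of latent TGF-beta as well as a target) read 12.76 and 12.65 against 11.69 and 12.02, a difference of −0.85 ± 0.14. That probe set is the brightest of 7, near the top of the array, and it gave the smallest of their differences. All 7 were lower, and the others ranged from −1.14 to −3.14. The brightest probe set alone lost its call without wild-type replicate 1 (adjusted p = 0.0953) or 2 (0.0736). NEDD9, a focal adhesion scaffold, differed by −0.72 ± 0.11 and was lower in 2 of 5 probe sets, a call lost without wild-type replicate 1 or 2 (0.0616 and 0.0739). BHLHE40, a transcriptional repressor, went up by 0.54 ± 0.11 in 1 of 2 probe sets, lost without either wild-type array (0.109 and 0.0714) and without knockout replicate 1 (0.062).

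The ID genes rose without exception in the probe sets used. ID1 read 10.15 and 10.10 against 11.23 and 11.11 (1.04 ± 0.10, limma adjusted p = 0.00138). ID2 had the largest rise among the probe sets used, from 8.47 and 8.24 to 10.88 and 10.90 (2.53 ± 0.12), and its second probe set gave 2.61. ID3 read 8.38 and 8.27 against 9.96 and 9.79 (1.55 ± 0.11). For ID4 the probe set with the highest mean gave a small difference of 0.79 ± 0.21, lost without any 1 array (adjusted p = 0.0664 to 0.205) and when adjusted over every probe set (0.0536). Another 3 of the 5 probe sets of ID4 were higher by 1.57, 3.02 and 4.95, the last from 2.19 and 2.17 to 7.22 and 7.04. The brightest probe set gave a smaller difference than these 3, whose wild-type readings all lay under the array medians of 3.99 to 4.03.

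The promoter windows of ID1, ID3, SMAD6 and TGFBI are printed because these genes mark the branches, ID1, ID3 and SMAD6 as BMP targets that rose and TGFBI as a TGF-beta target that fell. They are drawn and marked as those of INHBA and FST above and lie at chr20:31605039-31605338 (plus strand), chr1:23559452-23559751 (minus strand), chr15:66701986-66702285 (plus strand) and chr5:136028738-136029037 (plus strand) on GRCh38.p14.
ID1: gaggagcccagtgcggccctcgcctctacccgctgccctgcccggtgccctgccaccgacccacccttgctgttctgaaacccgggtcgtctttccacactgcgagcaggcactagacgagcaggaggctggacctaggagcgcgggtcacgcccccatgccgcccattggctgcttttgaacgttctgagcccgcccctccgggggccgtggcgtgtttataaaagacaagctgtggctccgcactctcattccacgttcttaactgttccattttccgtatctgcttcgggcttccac
ID3: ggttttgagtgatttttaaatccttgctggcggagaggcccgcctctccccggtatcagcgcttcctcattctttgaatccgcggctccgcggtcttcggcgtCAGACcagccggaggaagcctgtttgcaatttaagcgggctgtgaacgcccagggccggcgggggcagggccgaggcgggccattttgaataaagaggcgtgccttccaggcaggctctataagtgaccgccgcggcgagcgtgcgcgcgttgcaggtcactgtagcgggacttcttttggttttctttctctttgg
SMAD6: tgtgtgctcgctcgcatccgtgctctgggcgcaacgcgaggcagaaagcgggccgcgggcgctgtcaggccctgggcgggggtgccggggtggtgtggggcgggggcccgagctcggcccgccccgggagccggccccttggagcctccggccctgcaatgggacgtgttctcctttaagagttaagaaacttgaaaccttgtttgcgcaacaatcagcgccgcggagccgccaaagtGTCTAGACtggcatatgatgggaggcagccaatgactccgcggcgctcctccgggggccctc
TGFBI: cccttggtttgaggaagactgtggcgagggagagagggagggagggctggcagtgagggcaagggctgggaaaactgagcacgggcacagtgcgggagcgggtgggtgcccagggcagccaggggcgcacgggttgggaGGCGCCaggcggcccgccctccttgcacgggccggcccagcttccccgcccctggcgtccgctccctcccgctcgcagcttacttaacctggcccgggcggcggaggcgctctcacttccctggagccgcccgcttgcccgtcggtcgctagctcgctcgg
SMAD6 holds the palindrome GTCTAGAC beginning 12 bases before the start. It was the only one of the 39 members with a window to do so, and 0.202% of all windows hold it. ID3 holds 1 CAGAC match (147 bases before the start) and TGFBI 1 GGCGCC match (111 bases before it), a motif found in 19.2% of all windows and 23.1% of the members' windows. The ID1 window holds 0 matches to the 4 motifs, which says only that these letters are not in these 300 bases.

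**Figure D3:**
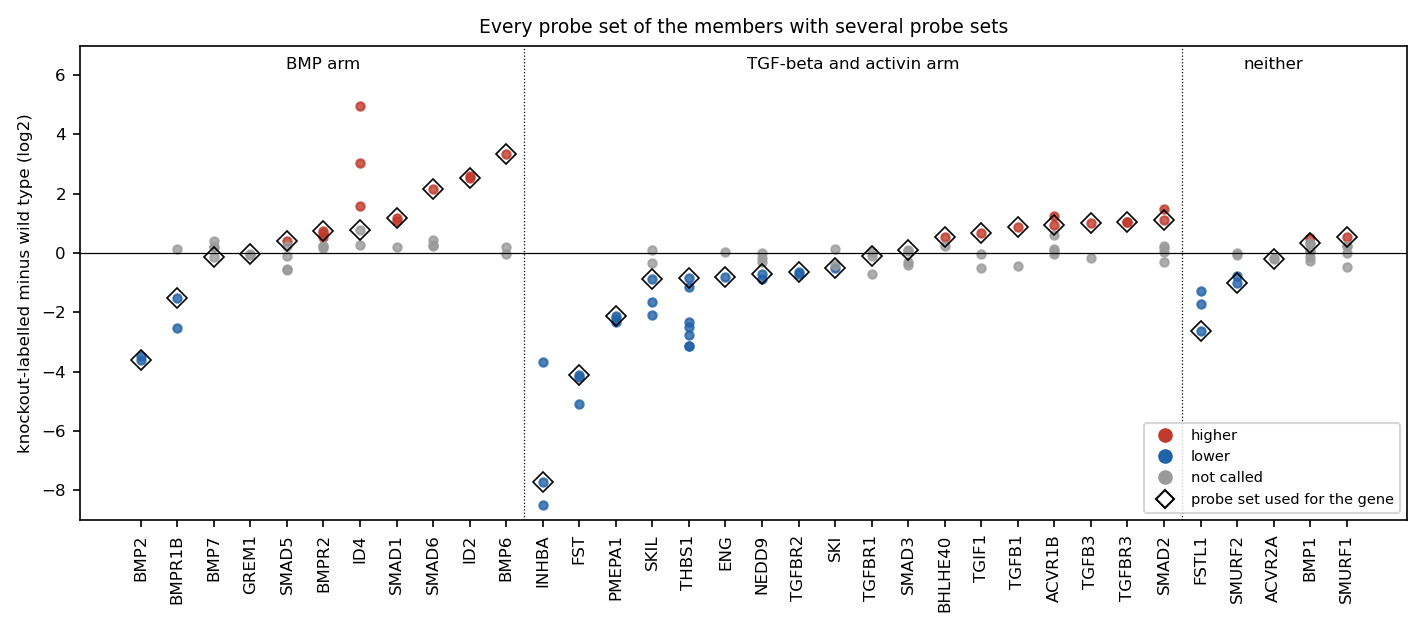
Log2 difference, knockout-labelled minus wild type, of every probe set of the 34 members that have several (points, one column per gene, ordered within the BMP arm, the TGF-beta and activin arm and neither). Colours give the call adjusted over all probe sets of the array, and an open diamond marks the probe set used for the gene. INHBA, FST, THBS1 and PMEPA1 have all probe sets below 0, ID4 spreads from 0.26 to 4.95, and in no gene were probe sets called in both directions.

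Probe sets of a gene agreed in direction wherever they were called. Of the 133 member probe sets 38 were lower and 29 higher when adjusted over all probe sets, 50.4% against 26.9% of all probe sets on the array. Of the 34 members with several probe sets, 9 had all of them called one way (INHBA, FST, FSTL1, THBS1, PMEPA1, BMP2, ID2, TGFBR2 and TGFBR3), and 0 had probe sets called both ways. The remaining 10 members, such as BMP4, NOG, SMAD7, ID1 and TGFBI, have a single probe set and no second reading.

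Other genes of the pathway, from a list of 65 that holds no member, were changed in both directions. Of the 60 measured, 17 were higher and 14 lower (51.7% called, against 38.7% of all genes), with a median difference of 0.11. BAMBI, a decoy receptor that dampens both branches, rose most among the receptors and co-factors, from 5.00 and 5.11 to 10.27 and 10.00 (5.08 ± 0.13, limma adjusted p = 3.27e-05). SMAD9, the remaining BMP SMAD, rose from 2.50 and 2.53 to 5.15 and 5.44 (2.78 ± 0.13) in 1 of 2 probe sets. RGMB, a BMP co-receptor, differed by −1.90 ± 0.10, lower in 4 of 4 probe sets. GDF15, a stress-induced distant member of the ligand family, was higher by 3.43 ± 0.15, but in 1 of 3 probe sets.

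The 22 measured ligands and latency genes outside the member list went both ways. Of them 4 were higher and 4 lower, a share called of 36.4% that lies near the 38.7% of all genes. Of the genes among them that store and free latent TGF-beta, LTBP1, LTBP2 and ITGB8 were lower and LTBP3 higher. LTBP4, LRRC32 and ITGAV were not called, and the remaining calls were those of ligands. LTBP2, a latent TGF-beta binding protein of the matrix, read 8.22 and 8.25 against 5.91 and 5.74 (−2.41 ± 0.11), with both probe sets lower. LTBP1, which anchors latent TGF-beta, differed by −1.61 ± 0.11, lower in 1 of 2 probe sets, while LTBP3 was higher by 0.76 ± 0.13. ITGB8, an integrin subunit that activates latent TGF-beta, read 9.08 and 8.87 against 6.88 and 6.67 (−2.20 ± 0.13, in 2 of 5 probe sets), and its partner ITGAV was not called (0.12 ± 0.10). ITGB6, an integrin subunit on the same list, was not among the genes measured. The response genes outside the member list did not go one way. SNAI2, a transcription factor of epithelial-mesenchymal transition, fell from 9.82 and 9.68 to 6.30 and 6.25, whereas the basement membrane collagen COL4A2 rose from 3.89 and 4.09 to 9.48 and 9.34. COL4A1 rose by 5.39 ± 0.52, with wild-type arrays at 3.71 and 2.11 that were far apart. CCN2 (connective tissue growth factor) was higher by 0.49 ± 0.10, and ANGPTL4, a secreted TGF-beta target, by 1.70 ± 0.13. Of the 11 measured response genes outside the member list 5 were higher and 3 lower (72.7% called, against 38.7% of all genes). Of the BMP targets on this list, MSX1 was higher (1.63 ± 0.11), MSX2 lower (−1.38 ± 0.13) and ATOH8 not called. CDKN2B, a cell cycle inhibitor induced by TGF-beta, fell from 7.32 and 7.50 to 1.95 and 2.00, and its chromosomal neighbours CDKN2A (−4.92 ± 0.14) and MTAP (−5.92 ± 0.29) were lower on the same arrays. The part of that neighbourhood in the CDKN2B value was not tested.

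**Figure D4:**
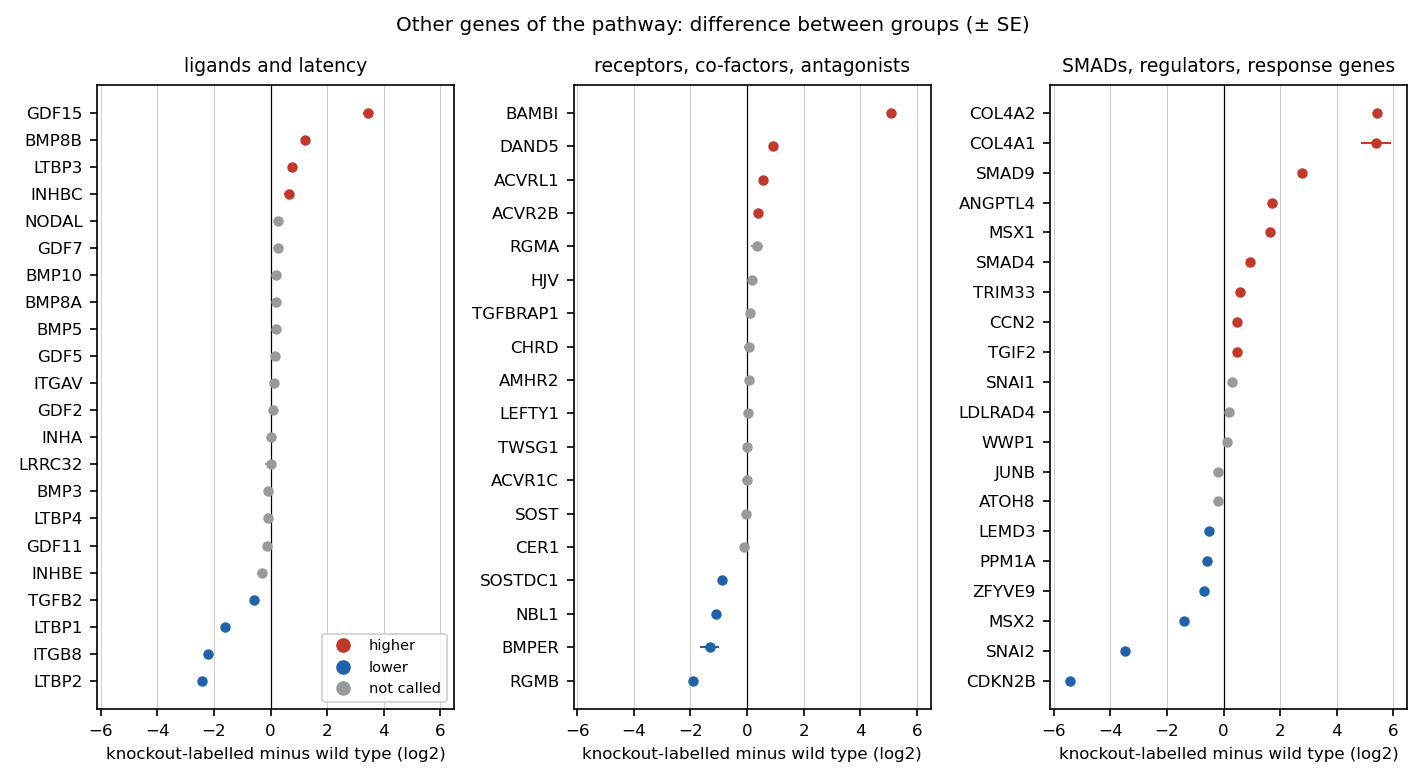
Log2 difference, knockout-labelled minus wild type (points, with the limma SE as bars), for the 60 measured pathway genes outside the member list, in panels by role. Colours are as for the members. COL4A2, COL4A1 and BAMBI lie above 5, CDKN2B lies at −5.44, and 14 of the 22 ligands and latency genes were not called.

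The fit of all 4 arrays had 2 residual degrees of freedom. Without 1 array it had 1, with the spread of the lone array's group taken to be that of the other group, so a lost call does not show that a difference depends on the array left out, and a kept call is no test of stability. Of the 38 called members 23 kept their call and direction in each of the 4 fits that left out 1 array, among them INHBA, INHBB, FST, FSTL1, BMP2, BMP4, BMP6, NOG, PMEPA1, TGFBI, SMAD1, SMAD6, SMAD7, ID1, ID2 and ID3. Over those fits the genes called in all fell from 7657 to between 3939 and 6220, the members called higher numbered 12 to 16 and those called lower 12 to 16, with the fewest of both without wild-type replicate 1 or wild-type replicate 2.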

How the data were processed

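Total RNA of 4 samples was measured on Affymetrix arrays, with 2 samples a group. The deposited table has a column for each. The authors used RMA and the affy package, per the submitters' processing notes, which give no version. The deposited values (0.87 to 13.9, array medians 3.99 to 4.03) were read as log2. RMA evens out overall brightness and gives no detection call. Of 54613 probe sets, 41091 carry 1 gene symbol, 1801 several and 11721 none.

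For a gene with several probe sets the one brightest on average was used (19775 genes). The group difference was fitted by lmFit and eBayes of limma 3.58.1 (R 4.3.3), without covariates or a filter, with Benjamini-Hochberg adjustment across genes and a threshold of 0.05. Every probe set was also tested on its own, adjusted over all 54613. The fit was tested on simulated data. Tables were made with pandas 2.3.3 in Python 3.11.15.

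The members and lists, and the split into arms, were chosen with earlier results of these data known. Named were all members, ARID1A and, of the other pathway genes, the 4 largest rises and 4 largest falls among called genes whose groups did not overlap. Further genes (SMAD4, SMAD9, RGMB, TGFB2, INHBC, INHBE, LTBP1, LTBP3, LTBP4, LRRC32, ITGAV, CCN2, ANGPTL4, BMP8B, TWSG1, NBL1, SOSTDC1, BMPER, DAND5, MSX1, MSX2, ATOH8, CDKN2A, MTAP and single markers) were named after their values were seen. Alternatives were other variance models, other probe set choices, filters on dim genes, rescaling, a block for the replicate number, and each array left out in turn. The number of arrays limits the precision.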

Additional observations from a re-analysis of the deposited data

How the results depend on the processing

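Of 38 called members 19 kept call and direction in every alternative that held them, and no member changed direction when the arrays were centred or quantile normalized again. With the mean of all probe sets, 13 members were higher, 3 of them in the TGF-beta and activin arm, the arm medians were −0.40 (TGF-beta and activin) and 0.44 (BMP), and SMAD3 (−0.13), SMAD5 (−0.11) and BMP7 (0.17) turned. When _x_at and _s_at probe sets were dropped, 37 members were left, and ID1, ID2, ID3 and BMP4 were not among them. Of the 37, 12 were higher (4 of 18 in the TGF-beta and activin arm and 6 of 13 in the BMP arm), with 11 of 53 other pathway genes. The medians were −0.67 and 0.41, and TGFB1 (−0.42) and TGIF1 (−0.51) turned. Without genes under the 40th percentile the BMP median was 0.88, over the 14 BMP members left. Without those under the 60th it was 1.00, over the 10 BMP members left, of which 2 were lower. BMP2 and BMPR1B were filtered out there and so did not lose a call. Of the 23 other pathway genes left, 11 were higher and 8 lower. With every probe set tested, 14686 of 54613 were called. Leaving out 1 array, genes called in all ranged from 3939 to 6220, members higher and lower from 12 to 16 each, the TGF-beta and activin arm from 3 to 6 higher and 6 to 10 lower, the BMP arm from 7 to 8 higher, and other pathway genes from 10 to 15 higher and 9 to 13 lower. The arm medians ran from −0.65 to −0.50 (TGF-beta and activin) and 0.58 to 0.70 (BMP), and 4 uncalled members turned: TGFBR1 (−0.30 to 0.069, positive without knockout replicate 1), and, without knockout replicate 2, BMP7 (−0.43 to 0.18), GREM1 (−0.072 to 0.0061) and CHRDL1 (−0.18 to 0.32). Apart from the construction of each alternative, the cause was not tested. With the replicate number as a block, 17 members were higher and 17 lower, and FSTL3 (adjusted p = 0.0927) and BMP1 (0.0931) lost their calls, as did SMAD5 (0.0658) and SMURF1 (0.0545). Deviations of same-numbered arrays correlated at −0.10 across genes, and a crossed pairing, added after seeing the data, gave 18 higher and 18 lower.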
